A study of Homo sapiens with 6 samples.

Results

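The 10 genes described here encode the mitogen-activated protein (MAP) kinases that tumor necrosis factor-α (TNF-α) signalling acts through: MAP3K5, MAP3K7, MAP3K8, MAP2K3, MAP2K4, MAP2K6, MAP2K7, MAPK8, MAPK9 and MAPK14. They were chosen by gene symbol, and all 10 were found among the 58735 genes of the expression table. RNA-seq was made from U251, an established human glioblastoma cell line, in 3 libraries of cells given sterile deionized water (NC group) and 3 libraries of cells given recombinant human TNF-α at 10 ng/mL (TNF-α group), both harvested after 24 h. The labels call the libraries of a group independent biological replicates and name no genetic change in the cells. One line, 1 dose and 1 time were studied, and RNA was measured, so kinase activity was not. In bulk RNA, a change in the share of cells that express a gene and a change per cell cannot be told apart.

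MAP kinase signalling runs through 3 tiers, in which a MAP3K phosphorylates and activates a MAP2K, and the MAP2K activates a MAPK. After TNF-α binds its receptor, the adaptors TRADD, RIPK1 and TRAF2 recruit TAK1 (MAP3K7), while ASK1 (MAP3K5) responds to TRAF2 and oxidative stress and TPL2 (MAP3K8) is released from the NF-κB precursor p105. MKK3 (MAP2K3) and MKK6 (MAP2K6) activate the p38 kinases, of which p38α is MAPK14, and MKK4 (MAP2K4) and MKK7 (MAP2K7) activate the JNK kinases, of which JNK1 is MAPK8 and JNK2 is MAPK9. This signalling is known for phosphorylation within minutes, which a transcript level does not show.

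Expression is given as FPKM, fragments scaled to gene length and library size, so a level is given per length of gene. That length merges all annotated exons of a gene, so levels, shares and ratios between genes depend on the annotation. The comparison of levels between genes is limited by the length and GC shifts given next. The libraries held 31992167 to 37897044 reads in genes. TNF-α replicates 2 and 3 stood apart from the other 4 libraries. Only 16.6% and 17.9% of their reads fell in genes over 8 kb, compared with 28.8% to 29.1% elsewhere, and their correlation with the NC libraries over log2(FPKM + 1) was 0.88 to 0.91, against 0.98 for TNF-α replicate 1. In these 2 libraries genes with a GC content over 55% lay above the NC mean by a median of 0.72 and 0.58 on the log2 scale, against -0.03 in TNF-α replicate 1, so the results for the 10 genes, the calls and the gene lists are also given without them, the lists by their difference of TNF-α replicate 1 from the NC mean. The glioma-associated transcripts VIM, NES and CD44 were at 40.8 FPKM or more in every library and GFAP at 7.10 to 9.47 in NC and 1.58 to 2.60 in TNF-α, where it fell past the test (log2 fold change -1.54, adjusted p 0.021), while S100B was listed at 0 in 4 of 6. Of the markers of other cells, PTPRC was at 0 throughout, EPCAM, CDH1, PECAM1 and VWF did not exceed 0.049, and CD14 lay between 0.528 and 1.56. The NF-κB targets NFKBIA, TNFAIP3, CXCL8, CCL2, ICAM1 and RELB all rose past the test, with log2 fold changes from 2.70 for TNFAIP3 to 5.33 for CCL2. The call of TNFAIP3 was lost with TPM (adjusted p 0.178), with quantile normalization (0.0663) and without a filter (0.124). Those of RELB (0.058) and GFAP (0.0654) were lost without a filter. Further settings are not listed here for these genes.

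In the NC group MAP2K3 had the highest level of the 10 genes at 17.7 ± 0.57 FPKM (SD, n = 3), followed by MAPK14 at 16.4 ± 0.81, MAP2K7 at 12.2 ± 0.56, MAP3K5 at 10.9 ± 0.17, MAP2K4 at 10.5 ± 0.29 and MAP3K7 at 10.0 ± 0.68. The JNK genes followed at 6.19 ± 0.11 for MAPK9 and 4.50 ± 0.32 for MAPK8. The lowest were MAP3K8 at 0.846 ± 0.14 and MAP2K6 at 0.280 ± 0.065. The ranges of MAP2K3 and MAPK14 overlapped, as did those of MAP3K5 and MAP2K4 and those of MAP2K4 and MAP3K7, so these neighbours were not separated by their replicate spread, while all other neighbours in the order were. In the TNF-α group MAP2K3 stayed first, while MAP2K7 and MAPK14 had overlapping ranges and kept their NC order in replicate 1, and MAPK9, MAPK8, MAP3K8 and MAP2K6 kept their places. MAP3K8 and MAP2K6 did not reach 1 FPKM in 3 libraries and so were not among the 12136 genes tested for a difference, which left 8 of the 10.

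**Figure D1:**
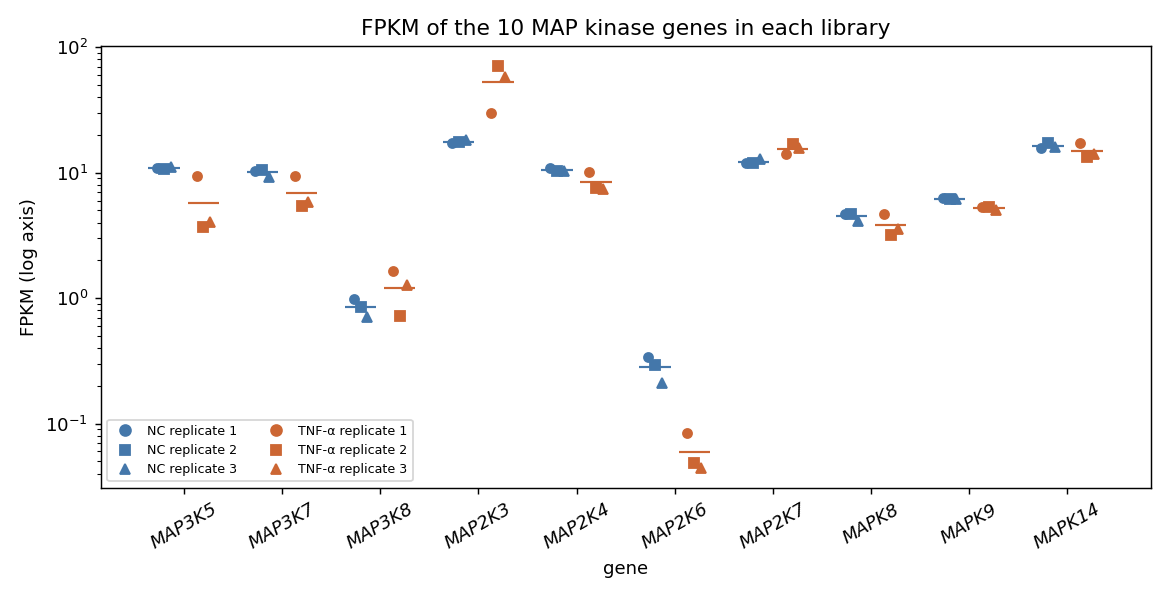
FPKM (log axis) of the 10 MAP kinase genes in the 3 NC libraries (blue) and the 3 TNF-α libraries (orange), with a marker shape for each replicate number and a line at each group mean. MAP2K3 lies at 29.8 to 70.8 in the TNF-α libraries, above all NC libraries, and MAP2K6 lies at 0.045 to 0.084, below all of them.

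Differences between the groups were tested with limma on log2(FPKM + 1), with Benjamini-Hochberg adjustment over all 12136 genes. None of the 8 tested MAP kinase genes passed an adjusted p of 0.05, a threshold that 1.01% of all tested genes passed. At an unadjusted p under 0.05 there were 4 of 8 (MAP2K3, MAP3K5, MAP3K7 and MAP2K7), against 24.2% of all tested genes. The groups did not overlap in 5 of the 8, namely MAP2K3, MAP3K5, MAP2K4, MAP2K7 and MAPK9, against 30.1% of all tested genes. Limma-voom on the read numbers recovered from the FPKM also called 0 of the 8, where 0.948% of all tested genes passed. The median log2 fold change of the 8 was -0.20, with 2 higher and 6 lower in TNF-α (4 and 4 in TNF-α replicate 1), beside a median of 0.04 over all tested genes. With TPM, in which every library has the same total, the median of all genes was -0.42 and MAP2K7 was lower as well, at -0.16, while relative to that median MAP2K3 and MAP2K7 stood at 1.39 and 0.26 and the other 6 below it. Without TNF-α replicates 2 and 3, 1 of the 8 passed, MAP2K3, against 6.03% of all tested genes, and in that comparison the lone TNF-α library is assumed to vary like the NC libraries. Without TNF-α replicate 1, all 8 passed, but so did 79.4% of all tested genes.

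**Figure D2:**
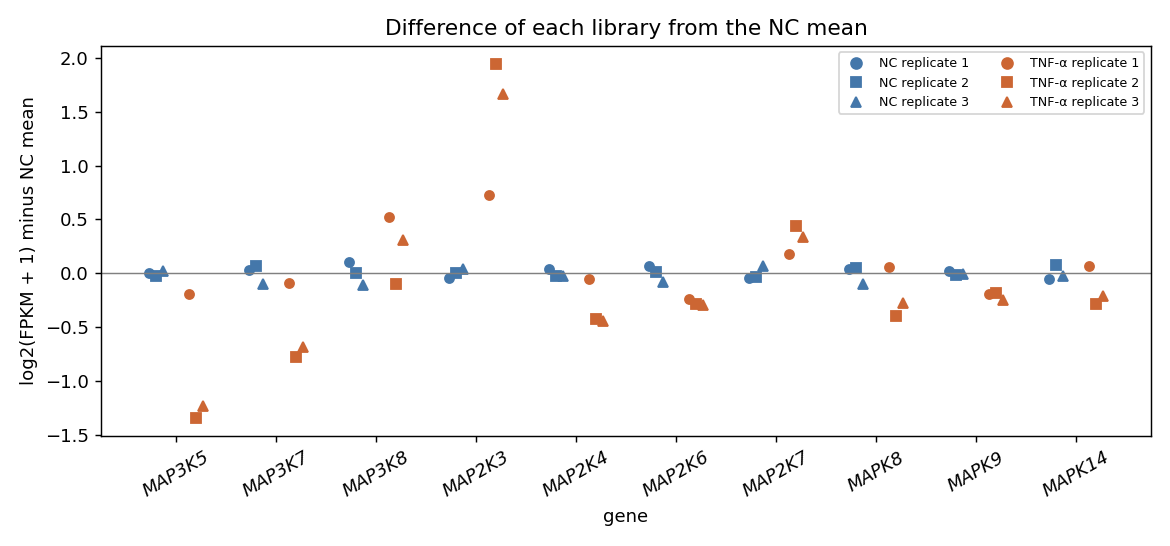
Difference of each library from the NC mean in log2(FPKM + 1) for the 10 genes, NC in blue and TNF-α in orange, with a marker shape for each replicate number. For MAP3K5, MAP3K7, MAP2K4, MAPK8 and MAPK14, TNF-α replicate 1 (circle) lies closer to the NC libraries than replicates 2 and 3 do. All 3 TNF-α libraries lie above all NC libraries for MAP2K3 and MAP2K7. They lie below them for MAP3K5, MAP2K4, MAP2K6 and MAPK9.

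MAP2K3, which encodes the p38 activator MKK3, was the gene of the 10 with the largest difference among those tested. It lies at chr17:21284672-21315240 on the plus strand (GRCh38). The NC libraries had 17.1, 17.7 and 18.2 FPKM, whereas TNF-α replicates 1, 2 and 3 had 29.8, 70.8 and 58.2 FPKM. All 3 TNF-α libraries were above all NC libraries, by 1.69, 4.01 and 3.29 times the NC mean. The log2 fold change was 1.44 (SE 0.32, 95% interval 0.68 to 2.21; limma adjusted p 0.133), and the exact two-sided permutation test gave p = 0.1, the smallest that 3 against 3 libraries allow. TNF-α replicate 1 alone gave 0.73 on the log2 scale (SE 0.08, adjusted p 0.0046). MAP2K3 has a GC content of 60%, a class of genes that was higher as a whole in TNF-α replicates 2 and 3. After a correction for GC content and gene length it stood at 0.92 (SE 0.12, adjusted p 0.0255), where 2.21% of all tested genes passed, and with quantile normalization at 1.09 (adjusted p 0.0425), where 1.52% passed. MAP2K3 was the 1 member that passed in either. The GC and length correction was chosen after seeing the data. MAP2K3 did not pass with length correction alone (limma adjusted p 0.0714), TPM (0.0811) or the replicate number as a block (0.213). Of 24 alternatives it passed in 5 and not in 19. Of its 50-base stretches 1.91% also occurred in the transcripts of another annotated gene.

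The 5 protein-coding genes outside the lists whose log2(FPKM + 1) followed MAP2K3 most closely over the 6 libraries were MSX1, TRIM47, UIMC1, SNAPC4 and PAX8, with Pearson r from 0.9986 to 0.9996. These 6 libraries share the 2 that stand apart, and 3062 of 10362 genes had r over 0.9 with MAP2K3, so a high r marks a large class of genes here.

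MAP2K6 encodes MKK6, the other p38 activator, and lies at chr17:69414698-69553861 on the plus strand. Levels in NC were 0.339, 0.293 and 0.209 FPKM, from 204, 160 and 112 reads, and levels in TNF-α were 0.084, 0.049 and 0.045 FPKM, from 45, 21 and 18 reads. All TNF-α libraries were lower than all NC libraries, at 0.300, 0.173 and 0.159 of the NC mean. The counting intervals (95%, exact Poisson, counting error only) did not meet: the lowest NC library had 0.172 to 0.252 FPKM and the highest TNF-α library 0.061 to 0.113. With genes kept at 10 reads in 3 libraries, limma-voom gave MAP2K6 a log2 fold change of -2.25 (SE 0.37, adjusted p 0.0616), and none of the 10 members passed where 0.721% of 16638 genes did. Without TNF-α replicates 2 and 3 it gave -1.70 (SE 0.42, adjusted p 0.0065), and 3 of the 10 members passed, MAP2K6, MAP2K3 and MAP3K8, where 9.22% of the genes did. In that fit the lone TNF-α library is again assumed to vary like the NC libraries. On the log2(FPKM + 1) scale the difference of MAP2K6 with all libraries was -0.27, which understates the change of so low a gene. The exact two-sided permutation test gave p = 0.1.

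The paralogues that activate p38 thus differed from the NC libraries in opposite directions in every TNF-α library. Their ratio does not change with a factor applied to a whole library, but it can change with GC content and gene length, which are 60% and 3783 bases for MAP2K3 and 40.2% and 16655 bases for MAP2K6. The part of that difference in TNF-α replicates 2 and 3 was not tested for the ratio, and replicate 1, where the medians of genes grouped by GC content or length lay between -0.03 and 0.01, is given beside them. MAP2K3 was 50.4, 60.3 and 87.1 times the level of MAP2K6 in the NC libraries. In TNF-α replicates 1, 2 and 3 it was 355, 1455 and 1307 times that level, without overlap. The size of the ratio depends on the merged exon lengths. By reads, MAP2K3 had 2337, 2190 and 2216 in NC, against 204, 160 and 112 for MAP2K6. Because MAP2K6 was low throughout, the share of MAP2K3 in their summed FPKM moved only from 98.4% ± 0.41 to 99.9% ± 0.12 (SD, n = 3 each), and the sum went from 17.9 ± 0.51 to 53.0 ± 21 FPKM. A ratio of MAP2K3 to its substrate kinase gene MAPK14 was 1.02 to 1.13 in the NC libraries and 1.73, 5.31 and 4.13 in TNF-α replicates 1, 2 and 3.

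MAPK14, encoding p38α, was at 15.8, 17.3 and 16.1 FPKM under NC and at 17.2, 13.3 and 14.1 FPKM under TNF-α. The groups overlapped, with TNF-α replicate 1 inside the NC range. Its log2 fold change was -0.14 (95% interval -0.49 to 0.20, adjusted p 0.451), and 0.07 (-0.14 to 0.27) against TNF-α replicate 1 alone. It was 0.09 after GC and length correction, so no direction is given. MAPK14 made up 76.3% ± 1.5 of the summed FPKM of the 4 p38 genes in NC. In TNF-α replicate 1 its share was 76.2%, within the NC range of 74.9% to 77.9%, and in replicates 2 and 3 it was 46.5% and 53.6%, where MAPK11 and MAPK12 took more. MAPK11 (p38β) has a GC content of 63.2% and MAPK12 (p38γ) 63.8%, against 45.6% for MAPK14. The part of base composition in that shift was not tested. Another gene on the same strand, HDAC10, covers 29.3% of the exonic bases of MAPK12, so the level of MAPK12 and these shares are uncertain.

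**Figure D3:**
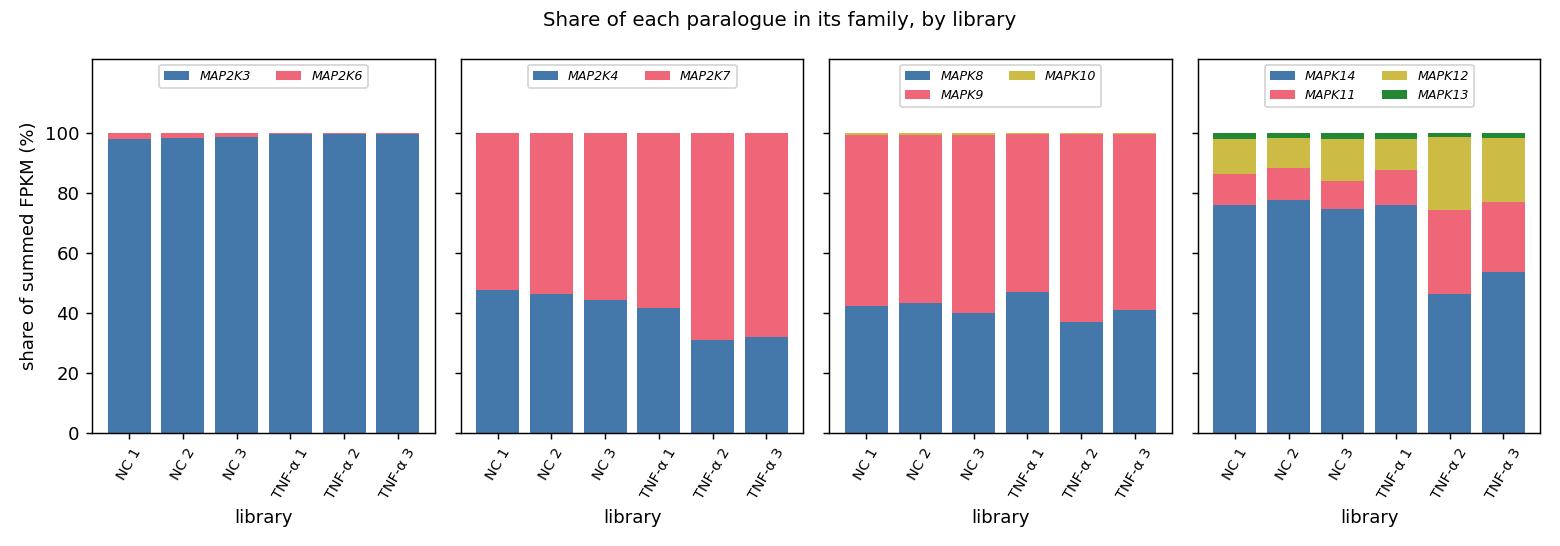
Share of each paralogue (% of the summed FPKM of its family) in each of the 6 libraries, for the p38 activators, the JNK activators, the JNK genes and the p38 genes. MAPK14 takes 46.5% and 53.6% of the p38 sum in TNF-α replicates 2 and 3 and 74.9% to 77.9% in the other 4 libraries.

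The JNK activators MAP2K4 and MAP2K7 showed smaller differences. MAP2K4 (MKK4, chr17:12020824-12143830, plus strand) was at 10.8, 10.3 and 10.3 FPKM in NC and 10.1, 7.60 and 7.46 FPKM in TNF-α. All TNF-α libraries were lower, replicate 1 by little, and the log2 fold change was -0.31 (SE 0.15, adjusted p 0.197), or -0.06 (-0.24 to 0.13) against replicate 1 alone. MAP2K7 (MKK7, chr19:7903843-7914478, plus strand) was at 11.88, 11.95 and 12.89 FPKM in NC and 14.0, 17.0 and 15.7 FPKM in TNF-α. All TNF-α libraries were higher, and the log2 fold change was 0.32 (SE 0.13, adjusted p 0.195), or 0.18 (-0.02 to 0.38) against replicate 1 alone. This direction turned after correction for GC content and gene length, to -0.05, and with TPM, to -0.16, and MAP2K7 has a GC content of 62.7%. An antisense gene covers 8.51% of the exonic bases of MAP2K7, and 6.05% of the 50-base stretches of MAP2K4 occur in transcripts of other genes, most of them in the pseudogene MAP2K4P1, so part of these values is uncertain. MAP2K7 held 53.8% ± 1.6 of the sum of both genes in NC, and 58.1%, 69.1% and 67.8% in TNF-α replicates 1, 2 and 3. The sum itself was 22.7 ± 0.46 FPKM in NC and 23.9 ± 0.71 FPKM in TNF-α, which depends on the scaling. With TPM, MAP2K4 was at 38.9 to 41.8 in NC and at 37.8, 16.4 and 18.3 in TNF-α replicates 1, 2 and 3. MAP2K7 was at 45.8 to 48.5 TPM in NC and at 52.5, 36.6 and 38.5 in those replicates.

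The JNK genes were among the least different. MAPK8 (JNK1, chr10:48306639-48439360, plus strand) was at 4.66, 4.70 and 4.13 FPKM in NC and 4.70, 3.18 and 3.54 FPKM in TNF-α, and replicate 1 lay at the top edge of the NC range. Its log2 fold change was -0.20 (-0.58 to 0.17, adjusted p 0.327), and 0.06 against TNF-α replicate 1 alone. MAPK9 (JNK2, chr5:180233143-180292099, minus strand) was at 6.32, 6.12 and 6.14 FPKM in NC and 5.29, 5.35 and 5.08 FPKM in TNF-α. In FPKM, MAPK9 differed by about the same amount in all 3 TNF-α libraries, which had 0.854, 0.864 and 0.820 of the NC mean. This was unlike MAP3K5, MAP3K7, MAP2K4, MAPK8 and MAPK14. With TPM, MAPK9 was at 24.4, 23.9 and 23.1 in NC and at 19.8, 11.5 and 12.4 in TNF-α. The evenness of its difference thus depends on the scaling. With all libraries the log2 fold change of MAPK9 in FPKM was -0.21 (SE 0.11, adjusted p 0.207), and -0.19 against replicate 1 alone. Under the length correction MAPK8 and MAPK9 turned to 0.07 and 0.04, so no direction is given for either. MAPK9 made up 57.6% ± 1.6 of the summed JNK FPKM in NC and 58.0% ± 4.9 in TNF-α. MAPK10 (JNK3) did not exceed 0.636% in any library. Its share depends on a merged exon length of 42646 bases, against 9674 for MAPK8 and 8955 for MAPK9. MAPK10 had 89, 79 and 90 reads in NC and 50, 34 and 13 in TNF-α.

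Among the upstream kinases, MAP3K5 (ASK1, chr6:136557047-136792518, minus strand) was at 10.9, 10.7 and 11.1 FPKM in NC and 9.436, 3.703 and 4.077 FPKM in TNF-α. All TNF-α libraries were lower, and most of the difference lay in replicates 2 and 3. The log2 fold change was -0.92 (SE 0.31, adjusted p 0.195), -0.84 (SE 0.27, adjusted p 0.150) after GC and length correction, and -0.19 (SE 0.07, adjusted p 0.220) against replicate 1 alone. MAP3K7 (TAK1, chr6:90513573-90587045, minus strand) was at 10.3, 10.6 and 9.28 FPKM in NC and 9.39, 5.46 and 5.89 FPKM in TNF-α. TNF-α replicate 1 lay inside the NC range, so the groups overlapped. The log2 fold change was -0.51 (SE 0.21, adjusted p 0.195), and it was -0.07 (-0.26 to 0.12) after the correction and -0.09 (-0.31 to 0.14) against replicate 1 alone. The ratio of MAP3K5 to MAP3K7 was 1.01 to 1.19 in NC, 1.00 in TNF-α replicate 1 and, in the other two, 0.678 and 0.693.

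MAP3K8 encodes TPL2, which activates the ERK branch, and lies at chr10:30433937-30461833 on the plus strand. It was at 0.984, 0.847 and 0.709 FPKM in NC, from 128, 100 and 82 reads, and at 1.64, 0.718 and 1.28 FPKM in TNF-α, from 190, 67 and 112 reads. TNF-α replicates 1 and 3 were above all NC libraries and replicate 2 was inside the NC range. Limma-voom with at least 10 reads in 3 libraries gave a log2 fold change of 0.43 (SE 0.36, adjusted p 0.391). Without TNF-α replicates 2 and 3 it was 0.97, a fit in which the spread between TNF-α libraries is not measured.

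**Figure D4:**
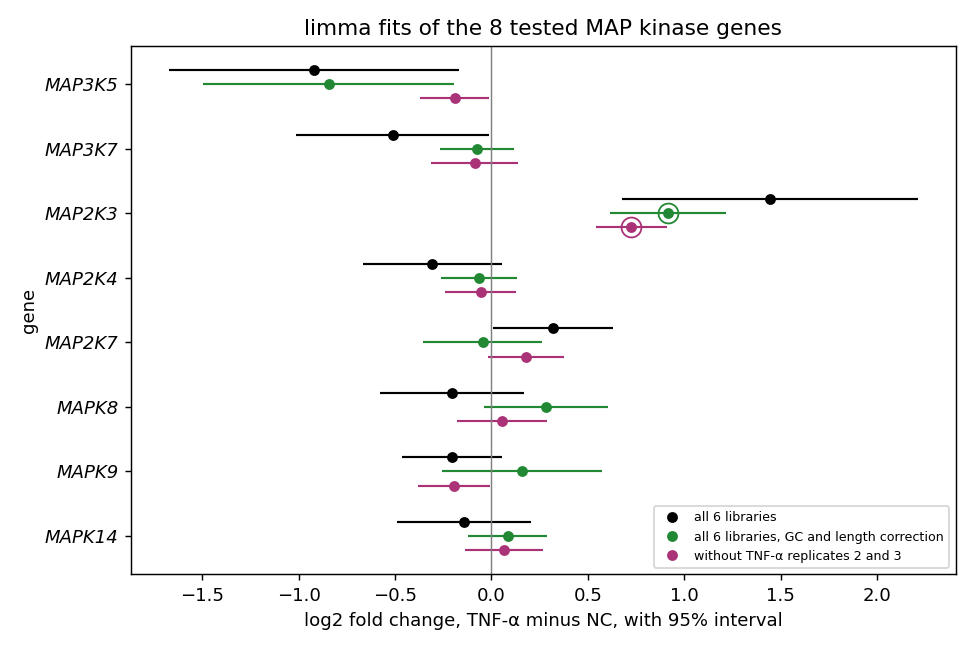
Log2 fold change (TNF-α minus NC) with 95% intervals from limma for the 8 tested genes, for all 6 libraries (black), after GC and length correction (green) and without TNF-α replicates 2 and 3 (purple). Rings mark an adjusted p under 0.05, which MAP2K3 alone reached, at 0.92 and 0.73, while the intervals of MAP3K7, MAP2K4, MAP2K7, MAPK8 and MAPK14 include 0 in both of the latter fits.

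The start regions of the genes were searched for the letters of sites known to bind NF-κB and AP-1, because both factors act after TNF-α. The sequences are from RefSeq (GRCh38.p14), as 17 windows of 250 bases before the start sites listed for the 10 genes, all of which matched by symbol. The κB consensus was found on either strand in 6 windows of 3 genes (MAP3K8, MAP2K3 and MAPK14), beside 5.21% of all 35116 windows. The AP-1 letters TGANTCA were found in 2 windows, of MAP3K8 and MAP2K3, beside 6.57% of all windows. Windows of 1 gene can overlap and share a site, and a match is a description of letters. Stretches of 30 bases are given for the 3 genes with a match, a choice made after the values were seen. MAP2K3 and MAP3K8, with both motifs, had ratios to the NC mean of 1.69 and 1.94 in TNF-α replicate 1. For MAP3K8 the ratio was 0.848 in replicate 2 and 1.51 in replicate 3, and the groups overlapped. MAPK14, with κB alone, had 1.05 in replicate 1. A link between the letters and the levels was not tested. Each stretch is written 5′ to 3′ on the plus strand with the motif letters in capitals. MAP2K3 holds both motifs in the first of its stretches, AP-1 before κB.
MAP2K3, chr17:21284670-21284699, spanning the annotated gene start: TGAGTCAgcgcagttcggccGGGGTCTCCC
MAP2K3, chr17:21287949-21287978, intronic, κB: tggcacctcgGGGACTTCCCccacccctct
MAP3K8, chr10:30433982-30434011, exonic, κB: ggggagacgcGGAATTTCCCagcgcggggg
MAP3K8, chr10:30434122-30434151, exonic, AP-1: ctcagacgccgTGAGTCAggggcagagcag
MAP3K8, chr10:30434429-30434458, intronic, κB: tgggtgccccGGGGATTCCCatgcagaaat
MAPK14, chr6:36027725-36027754, exonic, κB: ctcggctctcGGAGAGTCCCgggagctgtt
MAPK14, with a κB match, overlapped between the groups as given above. No match was found in the windows of MAP2K6, MAP2K4, MAP2K7, MAP3K5, MAP3K7, MAPK8 and MAPK9, which says only that these letters are absent there.

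The kinases work with other proteins of the pathway, and 67 further genes were followed in 10 lists, of which 60 were tested. One of the 60 passed, BIRC3, encoding the ubiquitin ligase cIAP2 that acts at the TNF receptor before TAK1. BIRC3 was at 2.80, 3.06 and 2.87 FPKM in NC and at 28.7, 16.8 and 17.3 FPKM in TNF-α, a log2 fold change of 2.45 (SE 0.22, adjusted p 0.00996). The call was lost with TPM (adjusted p 0.133), with the replicate number as a block, and on leaving out any NC library or TNF-α replicate 3 (0.0656 to 0.108). At an unadjusted p under 0.05 there were 15 higher and 7 lower, beside 24.2% of all tested genes in both directions together, and the median of the 60 was 0.08. In TNF-α replicate 1 the median of the 60 was 0.05, with 37 higher and 23 lower than the NC mean. With TPM 18 were higher and 42 lower, and their median of -0.41 lay near that of all genes, -0.42. Without TNF-α replicates 2 and 3, 6 of the 60 passed, against 6.03% of all tested genes. These were BIRC3 at 2.93, BIRC2 at 1.06, NFKB1 at 0.99, JUN at 0.64 and DUSP1 at 0.61, which rose, and MAP3K14 at -0.64, which fell. BIRC2 and MAP3K14 are named here after their values were seen. After GC and length correction 4 of the 60 passed, against 2.21% of all tested genes, with BIRC3, BIRC2 and NFKB1 higher and MAP3K14 (NIK, the kinase of non-canonical NF-κB signalling) lower.

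In the list of receptor-side adaptors 6 of 7 tested genes were higher, with a median log2 fold change of 0.77, and 1 passed, BIRC3. The count was also 6 of 7 in TNF-α replicate 1, with a median of 0.15. The partners of TAK1 had a median of -0.48 with 0 of 3 past the test, TAB2 at -0.48 (adjusted p 0.203) and TAB1 at 0.04 (adjusted p 0.858). In TNF-α replicate 1 that median turned to 0.05, TAB2 to 0.05 and TAB1 to -0.20. Both partners of TPL2 were higher and neither passed, NFKB1, which encodes p105, at 0.74 (adjusted p 0.121) and TNIP2 at 0.97 (adjusted p 0.195), and in TNF-α replicate 1 they stood at 0.99 and 0.24. Of 16 other MAP3K genes 6 were higher and 10 lower and none passed, with MAP3K4 at -0.40 and MAP3K11 at 0.63, both with an adjusted p of 0.195. In TNF-α replicate 1 there were 9 higher and 7 lower, with MAP3K4 at -0.19 and MAP3K11 at 0.10. Among the other MAP2K genes MAP2K2 was at 0.96 and MAP2K1 at -0.04, none past the test, and in TNF-α replicate 1 they were at 0.07 and 0.18. Of the other MAPK genes 4 of 6 tested were higher and 2 lower, with a median of 0.36 and none past the test, and in TNF-α replicate 1 there were 1 higher and 5 lower with a median of -0.05. MAPK6 was at -0.77, and at -0.03 in replicate 1.

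Downstream of the MAPKs, the 6 tested kinase genes had positive log2 fold changes and none passed, with MAPKAPK2, the p38 substrate kinase MK2, at 0.48 and RPS6KA4 (MSK2) at 0.51. This common sign was not seen in TNF-α replicate 1, where 4 of the 6 were below the NC mean (MAPKAPK2 at 0.22, RPS6KA4 at -0.05), nor with TPM, where 5 of the 6 were negative. The transcription factor genes split into 4 higher and 4 lower with none past the test, JUN at 0.54 and JUND at 0.81, both with an adjusted p of 0.195. In TNF-α replicate 1 all 8 tested were above the NC mean, with a median of 0.09, JUN at 0.64 and JUND at 0.12. Some were above it by little, MEF2C by 0.005 and ATF2 by 0.02. With TPM and all libraries, 2 of the 8 were higher and 6 lower. JUN, a target of JNK, was at 84.5 to 100.1 FPKM in NC and 123 to 140 FPKM in TNF-α, without overlap. Its log2 fold change was 0.0432 with TPM and 0.0077 with quantile normalization, so it depends on the scaling. Of the phosphatases that switch off JNK and p38, 2 of 6 were higher and none passed, and in TNF-α replicate 1 4 of 6 were higher. DUSP1 was at 14.5, 14.8 and 16.005 FPKM in NC and at 23.4, 24.2 and 25.4 FPKM in TNF-α. In FPKM it differed by nearly the same amount in all 3 TNF-α libraries, with a log2 fold change of 0.66 (SE 0.12, adjusted p 0.09). This evenness was not kept with TPM, where DUSP1 in TNF-α replicate 2 lay below all NC libraries, so it depends on the scaling. DUSP10 was at -0.59 (adjusted p 0.195), and at -0.25 in replicate 1. Of the scaffolds of JNK, SPAG9 was at -0.55 and MAPK8IP3 at -0.05, and none of the 3 tested passed. SPAG9 in TNF-α replicate 1 was above the NC mean, at 0.19, and MAPK8IP3 was at -0.03.

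**Figure D5:**
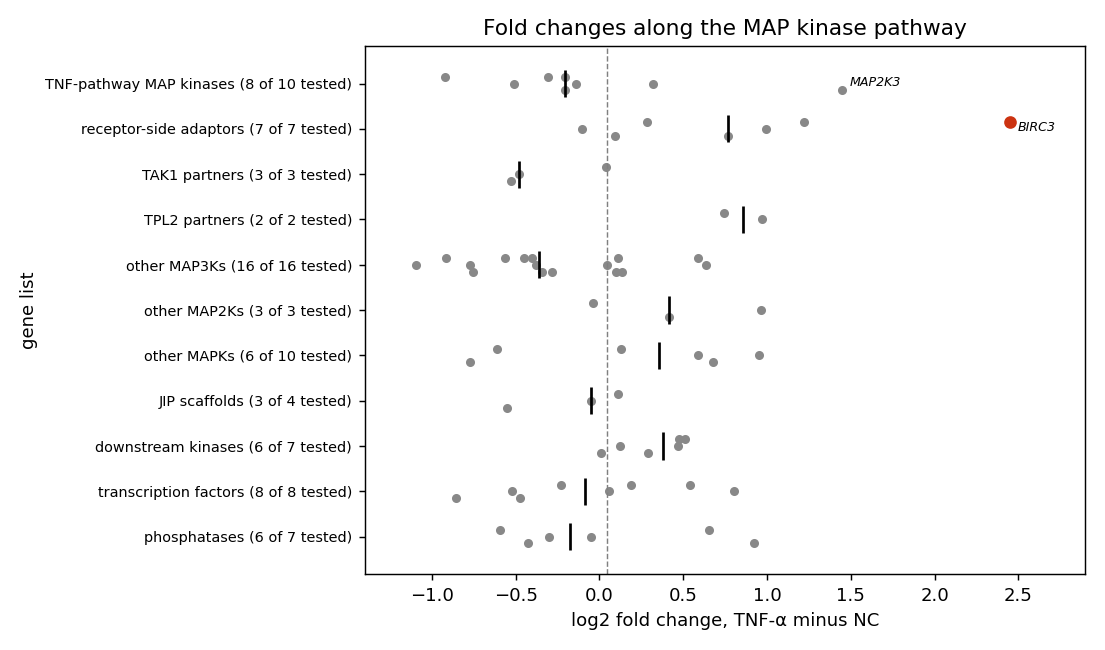
Log2 fold change (TNF-α minus NC) of each tested gene in the MAP kinase list and the 10 further lists, with a black line at each list's median and a dashed line at the median of all tested genes, 0.04. BIRC3, in red, is the 1 gene past an adjusted p of 0.05, and MAP2K3 is the highest of the MAP kinase list.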

How the data were processed

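Per the labels RNA was extracted with TRIzol lysis and a column kit, while the study's methods name TRIzol alone, and poly(A) libraries were made with NEBNext Ultra reagents. The submitters' processing notes name HISAT2 2.0.5, featureCounts 1.5.0, StringTie 1.3.3b, DESeq2, edgeR and GATK 3.7, and the strand setting is not given in the sources used here. The authors deposited FPKM, 1 column per library. Gene positions and lengths matched GENCODE release 29 for all 58735 genes. The table held 6 further per-sample columns, which were not used. Whole reads were recovered for 100% of values (tolerance 0.01 reads, rising with the count for genes with many reads). The library size inside the FPKM was 0.925 to 0.959 of the reads in genes in 4 libraries, and 0.693 and 0.759 in TNF-α replicates 2 and 3.

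Genes with at least 1 FPKM in at least 3 libraries were tested as log2(FPKM + 1), which understates changes of low genes, two-sided, in R 4.3.3 with limma 3.58.1 (linear fits moderated by eBayes with a trend, Benjamini-Hochberg adjustment). The main fit, limma-voom and the length correction were tried on simulated data that held no GC or length shift. The GC and length correction and the fits without TNF-α replicates 2 and 3 were not part of that trial. All adjusted p-values are from limma or limma-voom. The GC and length correction (splines of 5 df), the exclusion of TNF-α replicates 2 and 3, and limma-voom with a 10-read minimum were chosen after seeing the data. Named genes were the 10 members, and from each further list those past the threshold (up to 3) or otherwise the 2 with the highest mean, of which 1 gene is not reported here. The members and lists were chosen with earlier results of these data known. Counting intervals cover counting error only. Tables were made with Python 3.11.15, pandas 2.3.3 and numpy 2.4.6, and exact intervals with scipy 1.17.1.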

Additional observations from a re-analysis of the deposited data

How the results depend on the processing

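With 3 libraries per group, of which 2 of the TNF-α group stood apart, small changes of the kinases could not be resolved. The count of members past the test, 0, was 1 with quantile normalization, with GC and length correction and without TNF-α replicates 2 and 3, 3 with limma-voom on genes of at least 10 reads without those 2 libraries, and 0 to 8 on leaving out single libraries, with 8 reached without TNF-α replicate 1. The count of further pathway genes, 1, was 0 with TPM, 2 with length correction, 4 with GC and length correction, 6 without TNF-α replicates 2 and 3, 8 with limma-voom without them, and 0 to 49 on leaving out single libraries. The count of all genes, 123, was 58 without a filter, 79 at 5 FPKM, 58 with TPM, 185 with quantile normalization, 268 with GC and length correction, 732 without TNF-α replicates 2 and 3, 1534 with limma-voom without them, and 10 to 9630 on leaving out single libraries.

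MAP2K3, MAP3K5, MAP3K7 and MAP2K4 kept their direction under all 24 alternatives, MAP2K3 between 0.73 and 1.80. The size of the others varied more, with MAP3K5 from -1.49 to -0.19, MAP3K7 from -1.04 to -0.07 and MAP2K4 from -0.81 to -0.05. Most alternatives keep TNF-α replicates 2 and 3. TPM moved the median of all genes to -0.42. MAP2K7 was -0.16 there, which is 0.26 above that median, and MAP2K7 was -0.046 with GC and length correction. MAPK8 turned to 0.069 with length correction, 0.28 with GC and length correction, 0.055 without TNF-α replicates 2 and 3 and 0.078 with limma-voom without them. MAPK9 turned to 0.038 and 0.16 under the 2 corrections, and MAPK14 to 0.085 with GC and length correction, 0.065 without TNF-α replicates 2 and 3 and 0.081 with limma-voom without them. The cause was not tested.

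With the replicate number as a block, 24 genes passed, with 0 members and 0 further pathway genes, and with length correction as well 37, 0 and 1, where MAPK8 was at 0.069 and MAPK9 at 0.038. Deviations of same-numbered libraries correlated at -0.01, -0.18 and 0.12, and not every library correlated best with its own number, so the numbers were not taken as pairs.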

Other observations

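MAP2K1 and MAP2K2 lie outside the 10 genes, and their shares were looked at after seeing the data. MAP2K1 (MEK1) made up 37.9% ± 2.0 (SD, n = 3) of the summed FPKM of MAP2K1 and MAP2K2 in the NC libraries, and 39.8%, 14.2% and 20.0% in TNF-α replicates 1, 2 and 3. In this pair TNF-α replicate 1 lay within the NC range and the other two did not. For the ratio of MAP2K3 to MAP2K6, TNF-α replicate 1, at 355, was outside the NC range of 50.4 to 87.1. Other ratios between members were outside their NC range there as well. MAP2K7 to MAP2K4 was 1.39, against 1.096 to 1.247 in NC, and MAP2K3 to MAPK14, at 1.73, was above all NC libraries. MAPK9 to MAPK8, at 1.12, and MAP3K5 to MAP3K7, at 1.005, were below all NC libraries. MAP2K1 and MAP2K2 have GC contents of 51.2% and 63.3% and lengths of 3759 and 5236 bases, unlike MAP2K3 and MAP2K6. No test was run on these shares or ratios, and the part of GC content and length was not tested.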
